A study of Homo sapiens with 12 samples.

Results

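The genes described here are 10 genes of polyamine metabolism: 4 of synthesis (ODC1, SRM, SMS, AMD1), 3 of catabolism (SAT1, SMOX, PAOX) and 3 that control ornithine decarboxylase protein (OAZ1, OAZ2, AZIN1). They were chosen by symbol from a table of 25146 genes, and all 10 were in it. RNA of Jurkat and Molt-4 cells, established human lines of T-cell acute lymphoblastic leukaemia, was sequenced in 12 libraries, 3 in each of 4 groups. The groups were untreated Jurkat, Jurkat with 2 µM chidamide, untreated Molt-4 and Molt-4 with 2 µM chidamide. Chidamide is a benzamide inhibitor of histone deacetylases, and the series was deposited as a study of how it acts on NOTCH1 and MYC in this leukaemia. Library names give each line only as J or M, read here as Jurkat and Molt-4 because the growth protocol names these lines and no others. A description label reads human peripheral blood while the source name gives cell lines, and the samples are treated here as the lines. The treatment is described as lasting 48 h, but treated replicates 1, 2 and 3 carry 48, 49 and 50 h, so time and replicate number cannot be told apart. Each line is a single established leukaemia line, and neither stands for T-cell leukaemia in general.

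Putrescine, spermidine and spermine are small positively charged amines that bind RNA and DNA, and growing cells need them. ODC1 makes putrescine from ornithine, AMD1 supplies the aminopropyl donor from S-adenosylmethionine, SRM builds spermidine and SMS builds spermine. SAT1 acetylates spermidine and spermine, PAOX oxidises the acetylated forms, and SMOX oxidises spermine directly. The antizymes OAZ1 and OAZ2 bind ODC1 protein and send it to the proteasome, while AZIN1 resembles ODC1, has no enzyme activity and holds antizyme away from it. Antizyme protein is made only when the ribosome changes reading frame at a stop codon, a step that polyamines promote, so antizyme RNA alone does not give antizyme protein.

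The values were FPKM, fragments per kilobase of gene, scaled to the mapped fragments of the library, so levels can be compared between genes. No counts were among the files, so sequencing depth was unknown and no counting interval could be given. The libraries summed to 698435 to 869059 FPKM, with 11643 to 13228 genes at 1 FPKM or more. All 8 T-cell markers listed were present in all 12 libraries. Their summed level was 2023 to 2064 FPKM in untreated Jurkat, 1186 to 1247 in treated Jurkat, 831 to 912 in untreated Molt-4 and 689 to 725 in treated Molt-4. The 5 erythroid markers summed to 7.03 to 9.81 FPKM in untreated Jurkat, where ALAS2 was listed at 0. The same sum was 16.1 to 88.6 in treated Jurkat, 1962 to 2059 in untreated Molt-4 and 2888 to 2951 in treated Molt-4. Sums of 6 myeloid markers were at most 3.43 FPKM outside treated Molt-4, where they were 68.7 to 69.4, and MPO was listed at 0 in untreated cells of both lines. Sums of 4 epithelial markers were 0.10 to 1.85 FPKM in Jurkat, 81.1 to 86.0 in untreated and 209 to 215 in treated Molt-4, and EPCAM was listed at 0 in Jurkat. Sums of 4 NK markers were at most 1.72 FPKM untreated and 6.89 to 28.99 treated, those of 5 B-cell markers 3.65 to 29.8, and those of 6 fibroblast and endothelial markers 16.2 to 86.4. Several sums were mostly 1 gene: LYZ (62.1 to 63.9 FPKM) for myeloid markers in treated Molt-4, and NCAM1 (22.4 to 28.3) for NK markers in treated Jurkat. In untreated Jurkat CD79A (24.6 to 29.6) and PECAM1 (75.6 to 84.4) made up most of their sums. In Molt-4 CD3D, CD3E, CD3G and LCK were lower in every treated library, CD247, CD2 and CD7 were higher, and CD5 overlapped. A sum therefore does not show that its markers moved together. The part of these markers in the results was not tested. Untreated Jurkat replicate 3 stood apart: the SD of its log2 ratios to replicates 1 and 2 was 0.332 and 0.337, against 0.233 to 0.269 in the other pairs of replicates. It lay on the treated side of both other untreated Jurkat libraries in 50.8% of the 13840 genes tested. For replicates 1 and 2 the share was 27.7% and 28.8%. Among the 10 polyamine genes replicate 3 did so in 7 (ODC1, SRM, SMS, AMD1, SAT1, SMOX and PAOX). Untreated Molt-4 replicate 3 had the largest total, with 10.1% of it in 7SL RNA genes, against 2.25% to 5.35% in the other libraries. This library lay on the treated side in 35.8% of the genes tested, against 38.1% and 33.7% for replicates 1 and 2. It did so in 6 of the 10 polyamine genes. Results that turn on untreated Jurkat replicate 3 are given with and without it.

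Sequences are shown for the start of ODC1 and SRM, the polyamine genes searched that had a match to CACGTG, the E-box bound by MYC and MAX. RefSeq promoter windows on GRCh38.p14, of 250 bases before and 50 bases after a start, were used for 7 of the 10 genes (10 windows). Windows of polyamine genes on 1 chromosome were left out before this count. SMOX, PAOX and AZIN1 had no window in the search, so nothing is known here of their matches. CACGTG, which reads the same on both strands, was found in 2 of the 10 windows, 1 of SRM and 1 of the 2 of ODC1, and in 7.26% of 35116 windows of that length. The ODC1 stretch is chr2:10448002-10448112 on the minus strand, bases -100 to 11 from the start, with the E-boxes in capitals at -29 and 6. The SRM stretch is chr1:11060149-11060268 on the minus strand, bases -250 to -131, with the E-box in capitals at -199.
ODC1: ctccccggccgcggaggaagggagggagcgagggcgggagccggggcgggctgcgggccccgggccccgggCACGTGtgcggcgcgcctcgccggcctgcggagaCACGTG
SRM: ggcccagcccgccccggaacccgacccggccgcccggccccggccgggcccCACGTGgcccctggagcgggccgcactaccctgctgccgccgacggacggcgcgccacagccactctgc
The E-box letters were not found in the windows of SMS, AMD1, SAT1, OAZ1 and OAZ2. GGGCGG, the core of a GC box, was found on either strand in 9 of the 10 windows, all but that of SAT1, and in 45.0% of all windows. Among the AMD1 windows 2 lie 1 base apart and hold the same match, so the windows are not independent. By gene GGGCGG was found in 6 of the 7. These are matches of letters only, and binding was not measured.

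The frameshift site of the antizymes is shown because it is what sets OAZ1 and OAZ2 apart from the other polyamine genes. In GENCODE 29 transcripts, 7 of 11 OAZ1 and 5 of 9 OAZ2 transcripts held the 30 bases below. All of these but OAZ1-204 are annotated as retained introns or processed transcripts, and only some of them have an open frame ending at this stop. OAZ1-204 is annotated as protein coding but has no such open frame. In another 2 OAZ1 and 3 OAZ2 transcripts, all annotated as protein coding, the annotation writes the site 1 base shorter. Capitals mark TCC and the stop codon TGA, where the frame changes.
OAZ1: cctcggtggtgcTCCTGAtgcccctcaccc
OAZ2: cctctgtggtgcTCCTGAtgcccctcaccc
The sites were identical at 29 of 30 bases and differed by G5T, with the OAZ1 base first and positions counted from 1 at the 5′ end.

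**Figure D1:**
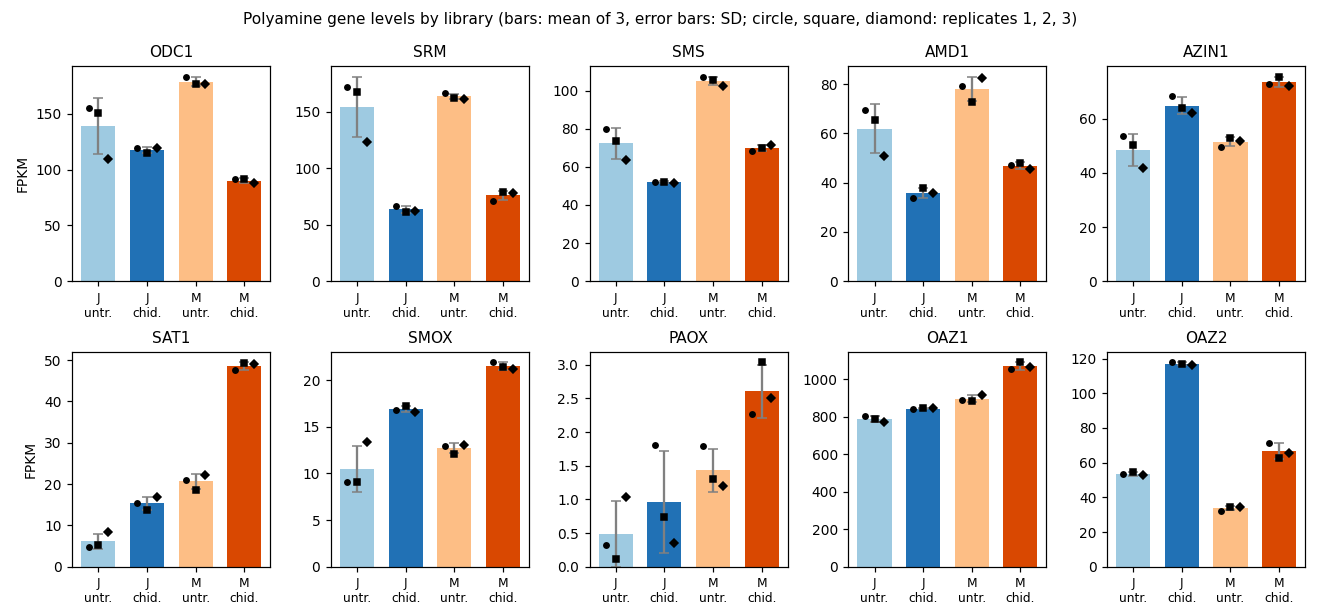
FPKM of the 10 polyamine genes in untreated (untr.) and chidamide-treated (chid.) Jurkat (J) and Molt-4 (M); bars are means of 3 libraries, error bars the SD, and the circle, square and diamond replicates 1, 2 and 3. In both lines treated SRM, SMS and AMD1 lie below and treated SAT1, SMOX and OAZ2 above every untreated library, while untreated and treated ODC1 overlap in Jurkat.

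With chidamide, most genes of polyamine synthesis fell, and most genes of catabolism and of the control of ODC1 protein rose. In Jurkat SRM, SMS and AMD1 fell and SAT1, SMOX, OAZ1, OAZ2 and AZIN1 rose, while ODC1 and PAOX did not pass the test. The direction of 9 of the 10 genes was the same under each of the scalings tried in both lines, and PAOX was the exception. In Molt-4 the same 8 genes passed in the same directions, and ODC1 also fell. The test was limma on log2(FPKM + 1) over all 12 libraries, with Benjamini-Hochberg adjustment over the 13840 genes that reached 1 FPKM in at least 3 libraries, called at an adjusted p under 0.05. All 10 genes were among those tested. Changes on this scale understate the change of genes at low FPKM. Nothing says whether the 3 libraries of a group were grown apart, so a p-value here measures only the spread between libraries, which may be technical.

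In Jurkat 5 of the 10 genes were higher and 3 lower, against a background of 30.9% of all tested genes called higher and 25.4% called lower. Treated and untreated Jurkat libraries did not overlap for 8 of the 10, against 60.7% of all genes. In Molt-4 5 were higher and 4 lower, against 35.4% and 24.6% of all genes. There the groups did not overlap for any of the 10, against 67.3% of all genes. Quantile normalization turned the split over all genes in Jurkat from 4277 higher and 3509 lower to 3589 and 4039, and in Molt-4 from 4903 higher and 3401 lower to 3540 and 5039. The response to chidamide was thus wide across the transcriptome, and a call by itself did not set a polyamine gene apart. The median change of the 4 synthesis genes was -0.61 in Jurkat and -0.85 in Molt-4 on the log2 scale, of the 3 catabolic genes 0.66 and 0.72, and of the antizymes with their inhibitor AZIN1 0.42 and 0.51. The median of all tested genes was 0.04 in Jurkat and 0.08 in Molt-4. In bulk RNA, fewer cells of a kind and less RNA per cell cannot be told apart.

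ODC1, the first enzyme of the pathway, responded differently in the lines. In untreated Jurkat it stood at 155, 151 and 109.8 FPKM in replicates 1 to 3, and in treated Jurkat at 119, 115 and 119. Untreated replicates 1 and 2 lay above every treated library and replicate 3 below every one of them, so the groups overlapped. The difference was -0.22 ± 0.10 (log2, SE, n = 3 a group; 95% interval -0.44 to 0.0040; limma adjusted p = 0.0878). Without untreated replicate 3 it was -0.37 with an adjusted p of 1.29e-05, so this library decided the call. In Molt-4, ODC1 was at 183, 177 and 176 FPKM untreated and at 91.3, 91.6 and 87.5 treated. All treated libraries were far below the untreated ones. The change was -0.98 ± 0.10 (log2, SE; limma adjusted p = 4.65e-06). The response of Molt-4 minus that of Jurkat was -0.76 ± 0.14 (log2, SE; 95% interval -1.08 to -0.45; limma adjusted p = 0.0016). Without untreated Jurkat replicate 3 this difference between the lines was -0.61 with an adjusted p of 1.24e-05. ODC1 has near-identical copies in the genome, and how shared reads were counted is not given in the sources used here. The same holds for SMS, AMD1 and OAZ1, so these levels carry that uncertainty.

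SRM, the spermidine synthase, had the largest fall of the synthesis genes in both lines. In Jurkat it went from 172, 168 and 123 FPKM in untreated replicates 1 to 3 to 66.9, 61.5 and 62.5 in treated ones. In Molt-4 it went from 167, 162 and 162 to 71.4, 78.7 and 77.9. In both lines every treated library was far below every untreated one, and within untreated Jurkat replicate 3 was the lowest. The change was -1.25 ± 0.10 in Jurkat (log2, SE, n = 3 a group; limma adjusted p = 7.98e-07) and -1.10 ± 0.10 in Molt-4 (limma adjusted p = 1.93e-06). The difference of the responses, Molt-4 minus Jurkat, was 0.15 ± 0.14 (95% interval -0.16 to 0.47; limma adjusted p = 0.463). Without untreated Jurkat replicate 3 it was 0.30 with an adjusted p of 0.00647, so the larger fall in Jurkat passed the test only when that library was left out.

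SMS, the spermine synthase, fell less than SRM. Untreated Jurkat had 79.8, 73.6 and 63.6 FPKM and treated Jurkat 51.9, 52.3 and 51.5. Untreated Molt-4 had 107, 106 and 102 FPKM and treated Molt-4 68.5, 69.8 and 71.3. The groups did not overlap in either line, and the treated Jurkat libraries were the lowest of the 12. The changes were -0.46 ± 0.07 in Jurkat (log2, SE; limma adjusted p = 0.000113) and -0.58 ± 0.07 in Molt-4 (adjusted p = 1.56e-05), with a difference of -0.12 (95% interval -0.33 to 0.10).

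AMD1, S-adenosylmethionine decarboxylase, fell in both lines. It was at 69.5, 65.4 and 50.8 FPKM in untreated and 34.0, 37.9 and 35.8 in treated Jurkat. It was at 79.2, 72.6 and 82.4 FPKM in untreated and 47.2, 48.2 and 45.4 in treated Molt-4. Treated libraries lay below all untreated ones of their line, and untreated Jurkat replicate 3 came closest to them. The changes were -0.76 ± 0.10 (log2, SE; limma adjusted p = 3.87e-05) and -0.72 ± 0.10 (adjusted p = 5.21e-05). The difference between the lines was 0.04 (95% interval -0.27 to 0.34; adjusted p = 0.863).

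**Figure D2:**
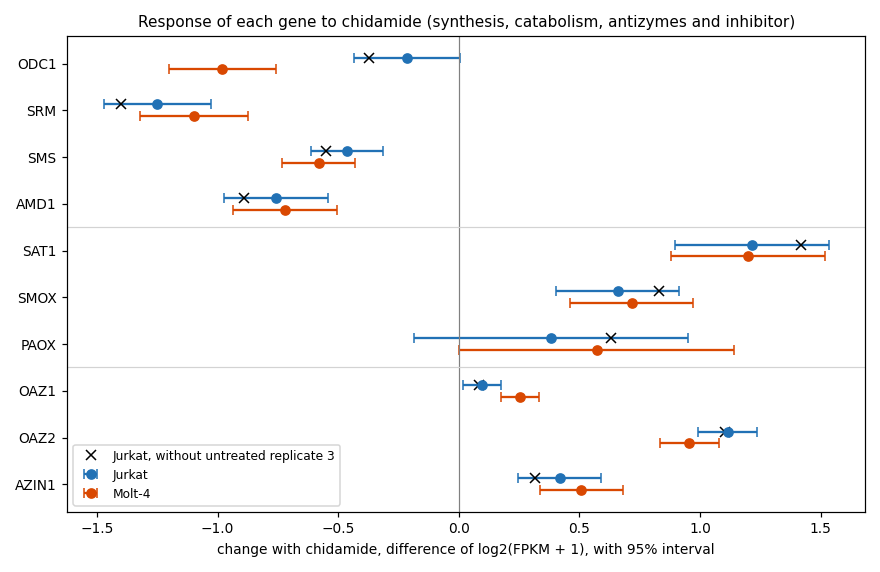
Change of each polyamine gene with chidamide on the log2(FPKM + 1) scale (x axis) in Jurkat and Molt-4, with 95% intervals from limma over 12 libraries; crosses give the Jurkat change without untreated replicate 3. Synthesis genes lie left of 0 and the others right of it (PAOX turned under quantile normalization), the Jurkat intervals of ODC1 and PAOX reach past 0, and the ODC1 intervals of the lines do not overlap.

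Among the catabolic genes, SAT1 had the largest rise. SAT1, the acetyltransferase that starts the breakdown and export of polyamines, was at 4.87, 5.32 and 8.28 FPKM in untreated Jurkat and at 15.5, 13.6 and 16.9 in treated Jurkat. In Molt-4 it was at 21.1, 18.7 and 22.2 FPKM untreated and at 47.6, 49.3 and 49.0 treated. Both treated groups were wholly above their untreated group, and untreated Molt-4 was above treated Jurkat. The rise was 1.22 ± 0.15 in Jurkat (log2, SE; limma adjusted p = 1.99e-05) and 1.20 ± 0.15 in Molt-4 (adjusted p = 1.92e-05). The difference of the responses was -0.02 (95% interval -0.47 to 0.43; adjusted p = 0.963), an interval that leaves room for a difference of that size in either direction.

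SMOX, the spermine oxidase, rose in both lines from low levels. It was at 9.05, 9.09 and 13.4 FPKM in untreated and 16.8, 17.3 and 16.6 in treated Jurkat. It was at 13.0, 12.1 and 13.1 FPKM in untreated and 22.0, 21.5 and 21.2 in treated Molt-4. No treated library reached down to an untreated one of its line, and untreated Jurkat replicate 3 was again the nearest. The changes were 0.66 ± 0.12 (log2, SE; limma adjusted p = 0.000429) and 0.72 ± 0.12 (adjusted p = 0.000206), with a difference of 0.06 (95% interval -0.30 to 0.42).

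PAOX, the oxidase of acetylated polyamines, was near the lower limit of what was tested. It was at 0.32, 0.11 and 1.04 FPKM in untreated and 1.81, 0.74 and 0.35 in treated Jurkat. It was at 1.79, 1.30 and 1.20 FPKM in untreated and 2.27, 3.04 and 2.50 in treated Molt-4. The Jurkat groups overlapped widely, with a treated library below an untreated one, while the Molt-4 groups were apart. The differences were 0.38 ± 0.26 in Jurkat (log2, SE; 95% interval -0.19 to 0.95; limma adjusted p = 0.236) and 0.57 ± 0.26 in Molt-4 (95% interval 0.0020 to 1.14; adjusted p = 0.0774). Neither passed the test, and under quantile normalization both turned to the other direction, -0.10 in Jurkat and -0.076 in Molt-4. Without untreated Jurkat replicate 3 the Jurkat difference was 0.63 (adjusted p = 0.0504). In Molt-4 PAOX passed the test when only the Molt-4 groups were fitted (adjusted p = 0.00761), or without untreated Jurkat replicate 3 (0.0450) or treated Jurkat replicate 1 (0.0340), libraries that enter through the shared estimate of the spread.

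OAZ1, the most abundant antizyme, had the highest level of the 10 genes in every library. It was at 803, 790.1 and 774 FPKM in untreated and 839.8, 845 and 845 in treated Jurkat. It was at 892, 883 and 918 FPKM in untreated and 1055, 1092 and 1065 in treated Molt-4. The groups of each line were apart, by a small margin in Jurkat. The rise was 0.10 ± 0.04 in Jurkat (log2, SE; limma adjusted p = 0.0412) and 0.25 ± 0.04 in Molt-4 (adjusted p = 7.97e-05). The Jurkat call was close to the threshold. Its adjusted p ran from 0.000976 to 0.161 over the alternatives, and it was lost under median-of-ratios scaling (0.161) and when only the Jurkat groups were fitted (0.0598). It was also lost without Jurkat untreated replicate 2 (0.0677) or treated replicate 1 (0.0884), 2 (0.102) or 3 (0.0960), and without Molt-4 untreated replicate 2 (0.0559) or treated replicate 1 (0.0568), 2 (0.0557) or 3 (0.0615). The Molt-4 response exceeded that of Jurkat by 0.16 ± 0.05 (95% interval 0.04 to 0.27; adjusted p = 0.0357), a call that was lost under each of the 3 other scalings, with adjusted p from 0.0712 to 0.383. It also did not hold when any library but the untreated replicates 3 of the lines was left out, with adjusted p from 0.0520 to 0.0956.

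OAZ2, the second antizyme, had the lowest adjusted p of the 10 genes in both lines. It was at 53.2, 54.5 and 52.8 FPKM in untreated and 118, 117 and 116 in treated Jurkat. It was at 32.2, 34.7 and 34.6 FPKM in untreated and 71.5, 62.5 and 65.7 in treated Molt-4. Replicates lay close together, untreated Jurkat replicate 3 included, and treated Molt-4 lay above untreated Jurkat. The rise was 1.11 ± 0.06 in Jurkat (log2, SE; limma adjusted p = 1.27e-08) and 0.96 ± 0.06 in Molt-4 (adjusted p = 3.27e-08). The difference, Molt-4 minus Jurkat, was -0.16 ± 0.08 (95% interval -0.33 to 0.01; adjusted p = 0.149). Under quantile normalization it was -0.29 and passed the test with an adjusted p of 0.0184. With totals made equal without the 7SL RNA genes it was -0.24 (adjusted p = 0.0392).

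AZIN1, the antizyme inhibitor, rose together with the antizymes. It was at 53.5, 50.2 and 41.7 FPKM in untreated and 68.3, 64.1 and 62.0 in treated Jurkat. It was at 49.7, 53.0 and 51.7 FPKM in untreated and 72.9, 75.6 and 72.3 in treated Molt-4. All treated libraries were above all untreated libraries of both lines. The rises were 0.42 ± 0.08 (log2, SE; limma adjusted p = 0.000717) and 0.51 ± 0.08 (adjusted p = 0.00015), with a difference of 0.09 (95% interval -0.16 to 0.33). In AZIN1, as in OAZ1 and OAZ2, untreated Jurkat replicate 3 was the lowest of its group and so lay farthest from the treated libraries.

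Ratios of FPKM within a library show how the balance of the genes moved, and a common factor for each library cancels in them. OAZ1 per ODC1 was 5.17, 5.25 and 7.05 in untreated and 7.03, 7.37 and 7.09 in treated Jurkat. In Molt-4 it was 4.87, 5.00 and 5.21 untreated and 11.6, 11.9 and 12.2 treated. The Molt-4 groups were far apart, while in Jurkat untreated replicate 3 fell among the treated libraries. AZIN1 per ODC1 was higher without overlap in both treated groups, going from 0.352 ± 0.024 to 0.550 ± 0.027 in Jurkat and from 0.288 ± 0.015 to 0.817 ± 0.015 in Molt-4 (mean ± SD, n = 3). AZIN1 RNA thus gained on ODC1 RNA in both lines. In Molt-4 this follows from the rise of AZIN1 and the fall of ODC1 given above, and the same holds there for OAZ1 per ODC1.

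SRM per SMS went from 2.12 ± 0.17 to 1.23 ± 0.06 in Jurkat and from 1.56 ± 0.02 to 1.09 ± 0.04 in Molt-4 (mean ± SD, n = 3). SAT1 per SRM, a gene that breaks polyamines down set against one that makes them, went from 0.0424 ± 0.0215 to 0.241 ± 0.025 in Jurkat. In Molt-4 it went from 0.126 ± 0.011 to 0.641 ± 0.022. OAZ2 per OAZ1 went from 0.0678 ± 0.0014 to 0.139 ± 0.002 in Jurkat and from 0.0377 ± 0.0016 to 0.0622 ± 0.0053 in Molt-4. For these 3 ratios treated and untreated libraries did not overlap in either line. SAT1 per SRM had to be apart, because SAT1 rose and SRM fell without overlap in both lines, so it adds nothing to those results. SRM and SMS both fell, and OAZ1 and OAZ2 both rose, but the genes of these pairs did not change in step. No test was run on the ratios.

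**Figure D3:**
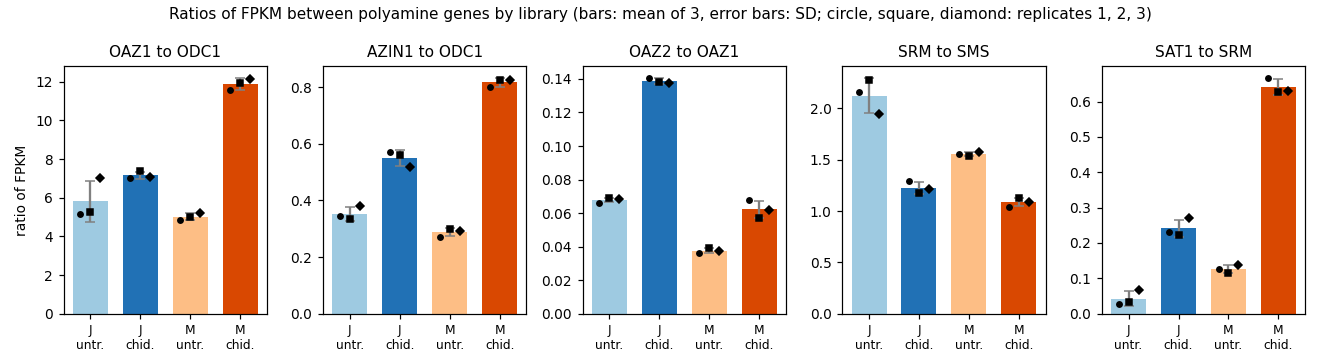
Ratios of FPKM between pairs of polyamine genes in each library (y axis, no unit) for untreated (untr.) and chidamide-treated (chid.) Jurkat (J) and Molt-4 (M); bars are means of 3 libraries, error bars the SD, and the circle, square and diamond replicates 1, 2 and 3. Treated and untreated libraries are apart in every ratio and line except OAZ1 to ODC1 in Jurkat, where untreated replicate 3 (7.05) lies among the treated libraries.

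The order of the levels changed with treatment below its first place. By mean FPKM the order in untreated Jurkat was OAZ1, SRM, ODC1, SMS, AMD1, OAZ2, AZIN1, SMOX, SAT1 and PAOX. There 4 pairs of neighbours had overlapping libraries, namely SRM with ODC1, SMS with AMD1, AMD1 with OAZ2, and OAZ2 with AZIN1. In treated Jurkat the order was OAZ1, ODC1, OAZ2, AZIN1, SRM, SMS, AMD1, SMOX, SAT1 and PAOX. ODC1 could not be separated from OAZ2, nor AZIN1 from SRM, nor SMOX from SAT1.

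In untreated Molt-4 the order was OAZ1, ODC1, SRM, SMS, AMD1, AZIN1, OAZ2, SAT1, SMOX and PAOX, and no neighbours overlapped. In treated Molt-4 it was OAZ1, ODC1, SRM, AZIN1, SMS, OAZ2, SAT1, AMD1, SMOX and PAOX. There SRM overlapped with AZIN1, SMS with OAZ2, and SAT1 with AMD1. By these means SRM moved down and OAZ2 up in Jurkat, with exact places not fixed because of the overlaps, while ODC1 kept the 2nd place in Molt-4 at a mean of 90.1 ± 2.26 FPKM.

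Before treatment the lines differed most in SAT1. Its mean was 20.7 ± 1.83 FPKM in Molt-4 and 6.16 ± 1.85 in Jurkat (SD, n = 3), a difference of 1.62 ± 0.15 (log2, SE; limma adjusted p = 9.13e-07). Of the 10 genes 6 were higher in untreated Molt-4 (ODC1, SMS, AMD1, SAT1, PAOX and OAZ1) and 1, OAZ2, was lower. Over all tested genes 27.9% were called higher and 37.5% lower, a split of 3857 against 5187 genes that became 4646 against 4344 under median-of-ratios scaling. For 7 of the 10 the untreated libraries of the lines did not overlap, against 66.7% of all genes. SMS differed by 0.54, ODC1 by 0.38, AMD1 by 0.34 and OAZ1 by 0.19 on the log2 scale. Without untreated Jurkat replicate 3 ODC1 differed by 0.22 and AMD1 by 0.21, and both were still called. OAZ2 differed by -0.65 ± 0.06 (limma adjusted p = 6.19e-07).

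PAOX differed by 0.75 ± 0.26 (adjusted p = 0.0241) but was not called when Jurkat replicate 1 (0.0690), Jurkat replicate 2 (0.09998) or Molt-4 replicate 1 (0.0822) was left out. SMOX was not called, with a difference of 0.27 (95% interval 0.02 to 0.53; adjusted p = 0.0552), and was called without Jurkat replicate 3 (0.45, adjusted p = 8.12e-05). SRM differed by 0.10 (95% interval -0.12 to 0.32) and AZIN1 by 0.09 (95% interval -0.08 to 0.27), and without Jurkat replicate 3 these were -0.053 and -0.0098. The OAZ1 call was lost under quantile normalization (0.027, adjusted p = 0.662). These comparisons of lines share the untreated libraries with the treatment comparisons above, and the erythroid and T-cell marker sums given above also differed between the lines.

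The responses of the lines differed by the test in 2 of the 10 genes, ODC1 (lower in Molt-4) and OAZ1 (higher in Molt-4). Over all tested genes 19.8% responded higher and 12.1% lower in Molt-4 than in Jurkat. That split, 2745 against 1671 genes, became 2271 against 2678 under quantile normalization and 2254 against 2180 with equal totals. The other 8 genes had intervals that included 0, the widest for PAOX (-0.61 to 0.99), and the test does not show that they responded alike. When untreated Jurkat replicate 3 was left out 2 genes, SRM and OAZ1, were called higher and ODC1 was called lower.

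MYC and MAX form the dimer that binds the E-box, and ODC1 is a textbook target of MYC. MYC was at 281, 278 and 220.3 FPKM in untreated and 161, 165 and 166 in treated Jurkat, and at 235, 239.8 and 219 in untreated and 196, 196 and 194 in treated Molt-4. MYC fell in both lines, by 0.65 on the log2 scale in Jurkat (limma adjusted p = 2.11e-05) and by 0.24 in Molt-4 (adjusted p = 0.0182), and its fall in Molt-4 was the smaller one by 0.41 (adjusted p = 0.0148). The fall of ODC1 was the larger one in Molt-4. SRM, the other gene with an E-box match, had the larger fall in Jurkat, but for SRM the difference passed its test only without untreated Jurkat replicate 3. Whether MYC had a part in the response of either gene was not tested. The Molt-4 call of MYC was lost without untreated replicate 1 (adjusted p = 0.0517), untreated replicate 2 (0.0636) or treated replicate 3 (0.0503). MAX rose by 0.54 in Jurkat (adjusted p = 0.000121) and by 0.22 in Molt-4 (adjusted p = 0.0319). The responses of MAX differed by -0.32, Molt-4 minus Jurkat, which was not called (limma adjusted p = 0.0523). That difference was called under median-of-ratios scaling (0.0469), quantile normalization (0.00782) and equal totals (0.0108), and without some single libraries. The Molt-4 call of MAX was lost under median-of-ratios scaling (0.0984) and when any library of that line but untreated replicate 3 was left out, with adjusted p from 0.0611 to 0.142.

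For ODC1, SRM and SAT1 the genes with the most similar pattern over the 12 libraries were found among 10103 genes with a mean of at least 5 FPKM, by the root mean square difference of centred log2(FPKM + 1) values. Nearest to SRM was IFRD2, at a difference of 0.0679, followed by GNA15 (0.114) and PSMB10 (0.123). Nearest to ODC1 were TIMP2 (0.107), TATDN2 (0.116) and SLC25A33 (0.130). Nearest to SAT1 were PTPN12 (0.131), IL16 (0.154) and PRKCB (0.176). Like SRM, IFRD2 was lowest among untreated Jurkat libraries in replicate 3 (55.8 FPKM, against 81.5 and 83.2). SRM therefore had a closer neighbour than ODC1 or SAT1.

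The list of genes for the supply of arginine and ornithine, the source of putrescine, held called genes in both directions. Of the 6 genes listed, 4 were tested, with 2 higher and 1 lower in Jurkat and 3 higher and 1 lower in Molt-4. The background was 30.9% higher and 25.4% lower in Jurkat and 35.4% and 24.6% in Molt-4. AZIN2, is among the higher genes in both lines and is not a supplier of ornithine. SLC7A1, an importer of arginine, fell from 44.1, 44.0 and 63.9 to 31.5, 29.6 and 26.2 FPKM in Jurkat and from 36.7, 35.8 and 33.5 to 19.9, 17.2 and 18.2 in Molt-4. Its changes were -0.76 ± 0.13 and -0.90 ± 0.13 (log2, SE; limma adjusted p = 0.000272 and 6.3e-05), and the lines differed by -0.14 (adjusted p = 0.589), or by -0.32 (0.0475) without untreated Jurkat replicate 3.

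ARG2, the mitochondrial arginase that makes ornithine, rose in Molt-4 from 3.55, 4.41 and 4.76 to 9.40, 8.45 and 9.46 FPKM, while in Jurkat 10.5, 11.3 and 12.2 stood against 12.9, 12.2 and 11.8. The change was 0.95 ± 0.10 in Molt-4 (limma adjusted p = 5.05e-06) and 0.11 ± 0.10 in Jurkat (adjusted p = 0.373), and the difference of 0.84 passed its test (adjusted p = 0.000707). AZIN2, an antizyme inhibitor once annotated as arginine decarboxylase, rose by 0.67 in Jurkat and 1.40 in Molt-4 (log2; adjusted p = 0.0011 and 2.69e-06). Its levels were low, at 4.01 to 4.39 FPKM in untreated and 6.49 to 8.49 in treated Jurkat, and 0.63 to 0.95 and 2.92 to 4.45 in Molt-4. The responses of AZIN2 differed by 0.73 (adjusted p = 0.0124), and by 0.45 under quantile normalization, where the call was lost (adjusted p = 0.124).

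In the list of genes that make S-adenosylmethionine and recycle the methylthioadenosine left over by SRM and SMS, genes fell or were not called. That list also holds AHCY, which does neither and fell in both lines. All 8 listed were tested, and 4 fell in Jurkat and 5 in Molt-4, with none called higher, against 25.4% and 24.6% of all genes called lower. MTAP, among these 8, was listed at 0 in every Jurkat library and could not be called there, but it was among the 5 in Molt-4. ADI1, an enzyme late in the salvage of methylthioadenosine, fell from 35.3, 37.7 and 27.5 to 15.5, 16.1 and 16.3 FPKM in Jurkat and from 28.5, 28.3 and 26.6 to 7.64, 7.53 and 7.55 in Molt-4. Its change was -1.01 ± 0.10 in Jurkat and -1.75 ± 0.10 in Molt-4 (log2, SE; limma adjusted p = 2.92e-06 and 2.06e-08), with a difference of -0.74 (adjusted p = 0.00155). The treated Molt-4 libraries were the lowest of the 12.

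AHCY, which hydrolyses S-adenosylhomocysteine, fell by 1.15 in Jurkat and by 0.84 in Molt-4 on the log2 scale (limma adjusted p = 6.69e-09 and 6.57e-08). The difference of 0.31 (adjusted p = 0.00774) was not called with equal totals (0.23, adjusted p = 0.0509). MAT2A, which makes S-adenosylmethionine, fell by 0.66 and by 0.40 (adjusted p = 4.81e-05 and 0.00193). Its responses differed by 0.26 (adjusted p = 0.135), or by 0.39 (0.00138) without untreated Jurkat replicate 3. MTAP, the first enzyme of methylthioadenosine salvage, was singled out after its values were seen, since it was listed at 0 in all 6 Jurkat libraries. In Molt-4 it was at 21.6, 19.2 and 22.7 FPKM untreated and at 15.0, 14.6 and 12.3 treated, a change of -0.57 ± 0.10 (log2, SE; adjusted p = 0.000284). No fold between the lines is given for it.

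**Figure D4:**
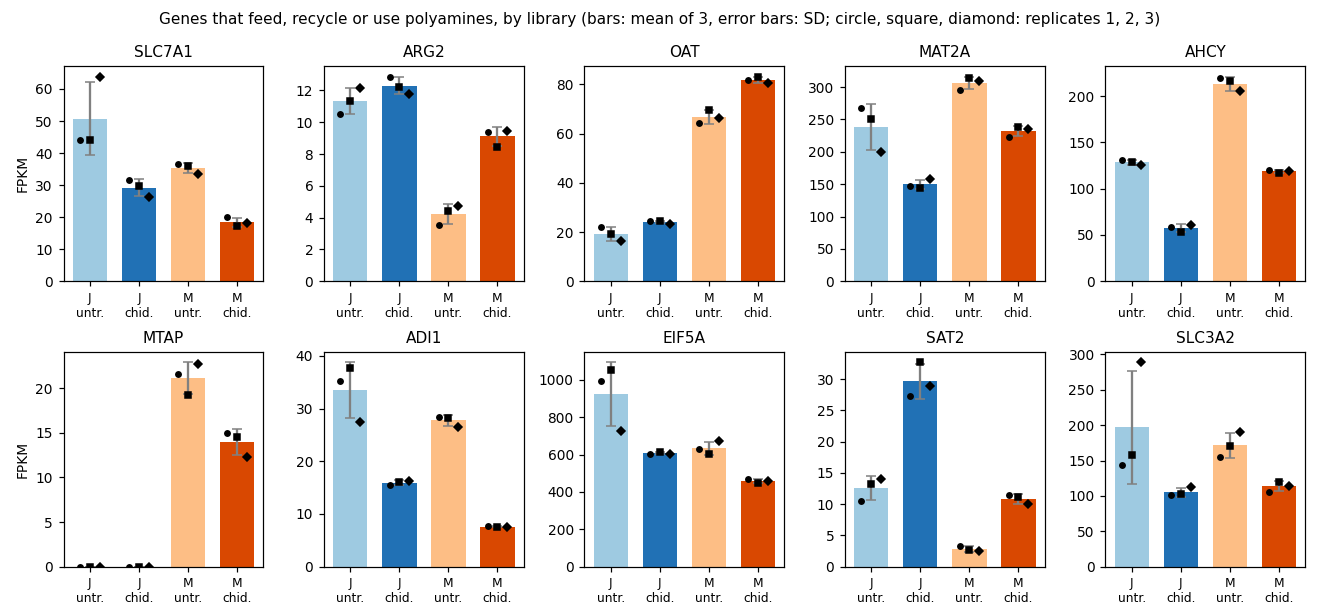
FPKM of 10 genes from the lists related to polyamine metabolism in untreated (untr.) and chidamide-treated (chid.) Jurkat (J) and Molt-4 (M). Bars are means of 3 libraries, error bars the SD, and the circle, square and diamond replicates 1, 2 and 3. MTAP is listed at 0 in all Jurkat libraries, treated AHCY, ADI1 and SLC7A1 lie below every untreated library of their line, and SAT2 lies above.

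Spermidine is the substrate for hypusine, a modified lysine found in the translation factor eIF5A. Of 4 genes listed and tested 3 fell in Jurkat and 2 in Molt-4, against 25.4% and 24.6% of all genes. EIF5A was among the most abundant genes here, at 992, 1050.2 and 728 FPKM in untreated and 604, 614 and 605 in treated Jurkat, and at 627, 602 and 672 in untreated and 468, 447 and 459 in treated Molt-4. It fell by 0.58 and by 0.47 on the log2 scale (limma adjusted p = 0.000485 and 0.00222). Without untreated Jurkat replicate 3 the fall in Jurkat exceeded that in Molt-4 by 0.28 (adjusted p = 0.00514), against 0.12 (adjusted p = 0.589) with it. EIF5A has near-identical copies as well. DHPS, the first enzyme of hypusine synthesis, fell by 0.29 in Jurkat (adjusted p = 0.00489; -0.18 and 0.0794 under quantile normalization), and was at -0.13 in Molt-4 (adjusted p = 0.141). DOHH, the enzyme after it, fell by 0.46 in Molt-4 (adjusted p = 0.00237). In Jurkat it was at -0.27 with overlapping groups, and its adjusted p of 0.0428 rose to 0.111 without untreated replicate 1, 0.151 without untreated replicate 2, 0.0868 without treated replicate 2 and 0.164 without treated replicate 3. It was 0.0510 without Molt-4 untreated replicate 1 and 0.0524 without Molt-4 untreated replicate 3. The Jurkat call of DOHH was also lost under quantile normalization (0.139) and with equal totals (0.134). The same held when only the Jurkat groups were fitted (0.0882) and with no filter on low values (0.0623).

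Of 8 genes linked to polyamine transport 5 were tested, and 2 fell in each line with none called higher, against 25.4% and 24.6% of all genes called lower. SLC3A2, a chain of amino acid exchangers also linked to polyamine export, fell by 0.83 in Jurkat and by 0.59 in Molt-4 on the log2 scale (limma adjusted p = 0.00349 and 0.0219). Untreated Jurkat replicate 3 had 289 FPKM of it, against 143 and 158 in the other two, and without it the change in Jurkat was -0.51. In Molt-4 the call was lost without untreated replicate 3 (adjusted p = 0.0745) or treated replicate 1 (0.0672). ATP13A3, a transporter linked to polyamine uptake, fell by 0.40 in Molt-4 (adjusted p = 0.00439), and was at -0.22 in Jurkat (adjusted p = 0.0762), where it passed without untreated replicate 2 (0.0493) or Molt-4 treated replicate 3 (0.0387). SLC18B1, a vesicular polyamine transporter, fell by 0.34 in Jurkat (adjusted p = 0.0163) and stood at 0.24 in Molt-4 (adjusted p = 0.0674). Its responses differed by 0.59 (adjusted p = 0.0112). The Jurkat call of SLC18B1 was lost without untreated replicate 3 (0.0572) or treated replicate 3 (0.0606). It was also lost with equal totals (0.0688) and when only the Jurkat groups were fitted (0.0646). The Molt-4 value passed without Molt-4 untreated replicate 2 (0.0308), Jurkat untreated replicate 2 (0.0370) or Jurkat untreated replicate 3 (0.0353).

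Of the 4 remaining antizyme, acetylation and oxidation genes 2 were tested, and both rose in both lines, against 30.9% and 35.4% of all genes called higher. SAT2, a relative of SAT1, rose from 10.4, 13.2 and 14.0 to 27.3, 32.7 and 28.9 FPKM in Jurkat and from 3.36, 2.73 and 2.44 to 11.5, 11.1 and 10.0 in Molt-4. The rise was 1.18 ± 0.12 and 1.63 ± 0.12 (log2, SE; limma adjusted p = 5.48e-06 and 2.9e-07). Before treatment SAT2 was lower in Molt-4, with a difference of -1.82 ± 0.12 (adjusted p = 6.23e-08), while SAT1 was higher there. OAZ3, an antizyme best known from the testis, rose from 0.39 to 0.64 FPKM in untreated to 1.81 to 2.22 in treated Jurkat, by 0.94 on the log2 scale (adjusted p = 0.00043), a call that was lost under quantile normalization (0.36, adjusted p = 0.103). In Molt-4 it was at 0.11 to 0.94 FPKM untreated and 1.04 to 1.18 treated, a rise of 0.48 (adjusted p = 0.0249) that turned to -0.26 under quantile normalization. That Molt-4 call was also lost without untreated replicate 3 (0.0937), treated replicate 1 (0.0689) or treated replicate 3 (0.0566).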

How the data were processed

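The deposited values were FPKM per gene, made by the authors for 12 libraries; STAR, HTSeq and DESeq2 and the build hg19 are named without versions or order, per the submitters' processing notes. How FPKM, strand and shared reads were handled is not given in the sources used here. All value columns were assigned to a sample (0 were not). The 10 genes and the lists of related genes were chosen with earlier results of these data known. log2(FPKM + 1) of genes at 1 FPKM or more in at least 3 libraries was fitted with limma 3.58.1 in R 4.3.3 (trend, 1 mean per group, 8 residual degrees of freedom), with Benjamini-Hochberg adjustment over 13840 genes, and the script was tested on simulated data. All 10 polyamine genes were named, with MYC and MAX, and from each related list up to 3 called genes with the largest change. Alternatives were pseudocount 0.1, other filters (none, or 5 FPKM), 3 other scalings (median of ratios, quantile, equal totals without 7SL RNA), only the groups compared, robust variances, a required 2-fold change, a replicate block, and each library left out. Sequences came from RefSeq promoter windows (GRCh38.p14) and GENCODE 29 transcripts, a build other than that of the values, and were matched by symbol. A marker gene of the erythroid list is not reported here and is not in its sums.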

Additional observations from a re-analysis of the deposited data

Results flagged for a closer look

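The response to chidamide differed between the lines, by limma's test of the difference (Molt-4 minus Jurkat, log2 scale, adjusted over all genes tested), in 8 of the named genes. Over all tested genes 19.8% responded higher and 12.1% lower in Molt-4, so a call by itself did not set a gene apart. The named genes from the related lists had also been picked for a large change with treatment. ODC1 had a difference of -0.76 (adjusted p = 0.0016), with all 3 treated Molt-4 libraries below the untreated ones and overlapping groups in Jurkat. OAZ1 had a difference of 0.16 (adjusted p = 0.0357), with the larger rise in Molt-4 and groups apart in both lines. That call was lost under each of the 3 other scalings (adjusted p from 0.0712 to 0.383) and without most single libraries. MYC had a difference of 0.41 (adjusted p = 0.0148), with the larger fall in Jurkat. ARG2 had a difference of 0.84 (adjusted p = 0.000707) and AZIN2 of 0.73 (adjusted p = 0.0124; 0.45 and 0.124 under quantile normalization), each with the larger rise in Molt-4. AHCY had a difference of 0.31 (adjusted p = 0.00774; 0.23 and 0.0509 with equal totals), falling more in Jurkat, and ADI1 of -0.74 (adjusted p = 0.00155), falling more in Molt-4. SLC18B1 had a difference of 0.59 (adjusted p = 0.0112), falling in Jurkat. No check for outlying samples by Dixon's ratio was made, and groups of 3 libraries are small for one.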

How the results depend on the processing

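For the 10 polyamine genes, 201 of 219 values under the alternatives kept direction and call in Jurkat, 208 of 219 in Molt-4, 175 of 209 for the difference between the lines and 204 of 219 between untreated lines. For the other named genes these were 322 of 351, 340 of 373, 313 of 335 and 343 of 373. PAOX and OAZ3 were not tested under the filter at 5 FPKM. With a change of at least 2-fold required, 2 polyamine genes were higher and 1 lower in Jurkat, 1 and 1 in Molt-4, 0 and 0 for the difference and 1 and 0 between untreated lines. Over all 13840 genes these counts were 1172 and 347, 1713 and 185, 928 and 274, and 1318 and 1389. For the difference, 0 were higher under median-of-ratios scaling, quantile normalization and equal totals, and 2 were lower under the last 2 of these.

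Quantile normalization moved the median of all genes from 0.08 to -0.10 in Molt-4 and from 0.04 to -0.07 for the difference. Under it PAOX turned to -0.10 in Jurkat and -0.076 in Molt-4, OAZ3 in Molt-4 to -0.26, and the differences of SAT1 to 0.10 and of AZIN1 to -0.013. With equal totals the differences of AMD1 and SMOX were -0.038 and -0.022, and MAX between untreated lines was -0.031. With pseudocount 0.1 the difference of PAOX was -0.12. Under median-of-ratios scaling OAZ3 between untreated lines was 0.013. The cause was not tested.

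With each library left out in turn, 0 to 2 polyamine genes were called higher for the difference, with 2 only without untreated Jurkat replicate 3. Differences that changed sign ran from -0.050 to 0.17 for AMD1, -0.22 to 0.11 for SAT1, -0.11 to 0.14 for SMOX, -0.061 to 0.48 for PAOX and -0.075 to 0.43 for SLC3A2. Between untreated lines they ran from -0.053 to 0.18 for SRM, -0.0098 to 0.17 for AZIN1, -0.059 to 0.11 for MAX, -0.32 to 0.18 for SLC3A2 and -0.21 to 0.19 for OAZ3. None of these passed the test with all 12 libraries.

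Libraries with the same replicate number did not deviate together (r from -0.0858 to 0.0408 over genes). Such values cannot tell whether libraries of 1 number came from the same culture or batch, because a shared origin need not leave a common deviation. With the replicate number as a replicate block, 4 polyamine genes were higher and 3 lower in Jurkat, 5 and 4 in Molt-4, and 0 and 1 for the difference. OAZ1 had an adjusted p of 0.0656 in Jurkat and 0.0608 for the difference. Depth was unknown, and 3 libraries a group limit the precision.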
